A study of Saccharomyces cerevisiae with 8 samples.

Results

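The tRNA genes described here are those of budding yeast, Saccharomyces cerevisiae, that carry alanine, valine, threonine or cysteine, together with the isoleucine tRNAs of anticodon AAU and the proline tRNAs of anticodon AGG. They were chosen by the gene name in the deposited count table, which gives the residue as 1 letter, the anticodon in brackets and a letter for the chromosome. The rule found 69 of the 275 nuclear tRNA genes, among 7126 features, and the 69 genes fall into 11 of the 42 nuclear anticodon families. All 69 match a tRNA gene of the R64 reference by position, and each has 1 exon there, so the label of tRNAs without introns holds. RNA of 50 to 100 nt was sequenced from cells grown in YPD, a rich medium, with 4 groups of 2 libraries. The groups were WT cells, whose strain label is UBC9, and cells of the ubc9-1 mutant strain, each either untreated or given 100 nM rapamycin for 30 minutes. The labels give no further alleles and do not say whether the replicates of a group came from separate cultures, so p-values measure only the spread between these libraries, which may be technical.

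A tRNA is copied from its gene by RNA polymerase III, which binds through factors that read promoter elements inside the gene, the A and B boxes. The new transcript carries a 5′ leader and a 3′ trailer that ends in a run of U, and both are cut off before the tRNA is charged with its amino acid. TORC1, a kinase complex active in well-fed cells, promotes RNA polymerase III transcription, and rapamycin inhibits TORC1. Ubc9 is the enzyme that passes the small protein SUMO to its targets. From the title of the series, the question is how TORC1 acts on RNA polymerase III through SUMO.

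The families differ in the first base of the anticodon, position 34, which pairs with the third base of the codon. In the alanine family tA(AGC), the valine family tV(AAC), the threonine family tT(AGU), the isoleucine family tI(AAU) and the proline family tP(AGG) this base is an A in the gene and is known to become inosine in the tRNA. In tA(UGC) of alanine, tV(UAC) of valine and tT(UGU) of threonine it is a U that receives a side chain, tV(CAC) and tT(CGU) have a C, and tC(GCA) has a G. One sequence of each family is shown because the copies of a family share it, and with it their fragments. Letters are those of the RefSeq R64 genome on the gene's strand, 5′ to 3′, and the capitals mark the anticodon.

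tA(AGC)P, chrXVI:856902-856974, plus strand: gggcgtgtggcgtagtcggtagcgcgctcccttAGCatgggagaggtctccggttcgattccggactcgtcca
tA(UGC)A, chrI:166267-166339, plus strand: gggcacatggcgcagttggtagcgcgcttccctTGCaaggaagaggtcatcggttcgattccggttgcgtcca
tV(AAC)H, chrVIII:85298-85371, minus strand: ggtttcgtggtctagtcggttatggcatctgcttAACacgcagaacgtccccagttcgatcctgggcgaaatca
tV(CAC)H, chrVIII:475706-475778, minus strand: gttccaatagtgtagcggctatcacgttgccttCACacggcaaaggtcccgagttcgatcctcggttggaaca
tV(UAC)D, chrIV:488797-488870, minus strand: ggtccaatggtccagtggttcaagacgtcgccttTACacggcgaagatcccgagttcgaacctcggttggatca
tT(AGU)D, chrIV:434264-434336, minus strand: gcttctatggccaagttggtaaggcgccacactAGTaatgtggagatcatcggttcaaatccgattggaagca
tT(CGU)K, chrXI:46735-46806, minus strand: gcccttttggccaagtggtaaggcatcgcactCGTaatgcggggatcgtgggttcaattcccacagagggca
tT(UGU)G1, chrVII:661749-661820, plus strand: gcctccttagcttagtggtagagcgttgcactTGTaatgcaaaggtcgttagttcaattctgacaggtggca
tI(AAU)I2, chrIX:210665-210738, plus strand: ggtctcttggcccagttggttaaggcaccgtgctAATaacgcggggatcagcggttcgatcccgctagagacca
tC(GCA)B, chrII:643007-643078, minus strand: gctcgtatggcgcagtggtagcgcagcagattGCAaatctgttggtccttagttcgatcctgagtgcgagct
tP(AGG)C, chrIII:123577-123648, minus strand: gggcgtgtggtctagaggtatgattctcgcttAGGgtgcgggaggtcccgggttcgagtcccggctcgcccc

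The 69 genes hold 13 distinct sequences, and none of the 13 occurs in a family outside the 11. tA(AGC) has 11 copies, tA(UGC) 5, tV(AAC) 14, tV(CAC) 2, tV(UAC) 2, tT(AGU) 11, tT(CGU) 1, tT(UGU) 4, tI(AAU) 13, tC(GCA) 4 and tP(AGG) 2. Copies within a family are identical except for tT(UGU)H, which differs from the other tT(UGU) copies by T49C and A63G, and tV(AAC)O, which differs from the other tV(AAC) copies by A74G. Positions are counted from 1 at the 5′ end of the gene, and the base of the other copies comes first. Between families of equal length, tA(AGC) and tA(UGC) are the most alike, with 58 identical bases of 73 (79.5%), and tP(AGG) and tT(UGU) the least, with 26 of 72 (36.1%). The B box letters GTTCNANNC, searched on the gene's own strand, occur in 69 of the 69 genes and in 270 of the 275 nuclear tRNA genes (98.2%).

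Each placement of a fragment that fits several genes was counted, so identical copies receive the same fragments and a summed count holds such a fragment once per copy. The table holds counts of placements, and a count assigned to 1 of several identical copies is uncertain. Fragments in overlapping features were left out, and 3 of the 69 genes were at 0 in all 8 libraries: tI(AAU)N2, which lies inside YNL017C, tT(UGU)P, inside YPR108W-A, and tT(UGU)H, which overlaps YHR180W-A and YHR180C-B. The other 66 genes all passed the filter on low counts. Libraries held 14304014 to 21061460 assigned counts, of which 1116866 to 4564125 fell in nuclear tRNA genes and 34698 to 151264 in the 69 genes. All levels given are CPM, which are counts scaled to a common library size after TMM normalization. They are relative to the rest of each library, so less of a tRNA and more of the other RNA in the library cannot be told apart. For replicates 1 and 2 the TMM factors were 0.677 and 1.07 (WT without drug), 1.11 and 1.403 (WT with rapamycin), 0.714 and 1.30 (ubc9-1 without drug), and 0.918 and 1.05 (ubc9-1 with rapamycin). In each group replicate 1 was the library with the lower factor, and it had the higher level in all 11 families in 3 of the groups and in 10 of 11, all but tT(UGU), in rapamycin-treated WT. The part of this in the results was not tested. UBC9 itself had 2 to 114 counts in the WT libraries and 221 to 554 in the ubc9-1 libraries, which does not check the allele.

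The levels of the families spread widely in untreated WT. Identical copies receive the same fragments, so a level per copy reflects mainly the fragments shared by the family and not the output of 1 gene. Per gene copy with counts and per kilobase of gene, tT(UGU) stood at 28846 ± 16551 CPM (SD, n = 2), tV(CAC) at 4159 ± 2678 and tV(AAC) at 2221 ± 1035. Next came tA(UGC) at 2208 ± 1110.5, tC(GCA) at 2127 ± 905 and tA(AGC) at 1165 ± 739. Lower still were tT(AGU) at 457 ± 219, tV(UAC) at 259 ± 164, tP(AGG) at 239.7 ± 44.7, tI(AAU) at 163 ± 72.7 and tT(CGU) at 54.2 ± 25.6. From tV(CAC) down to tI(AAU), neighbours in this order differed by less than the sum of their SDs. Among the isoacceptors of 1 residue the spread was largest for threonine, where most of the tT(UGU) count came from the single copy G1, described further below. Whether these levels follow the amount of tRNA in the cell was not tested, since the files hold no other measure of it.

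**Figure D1:**
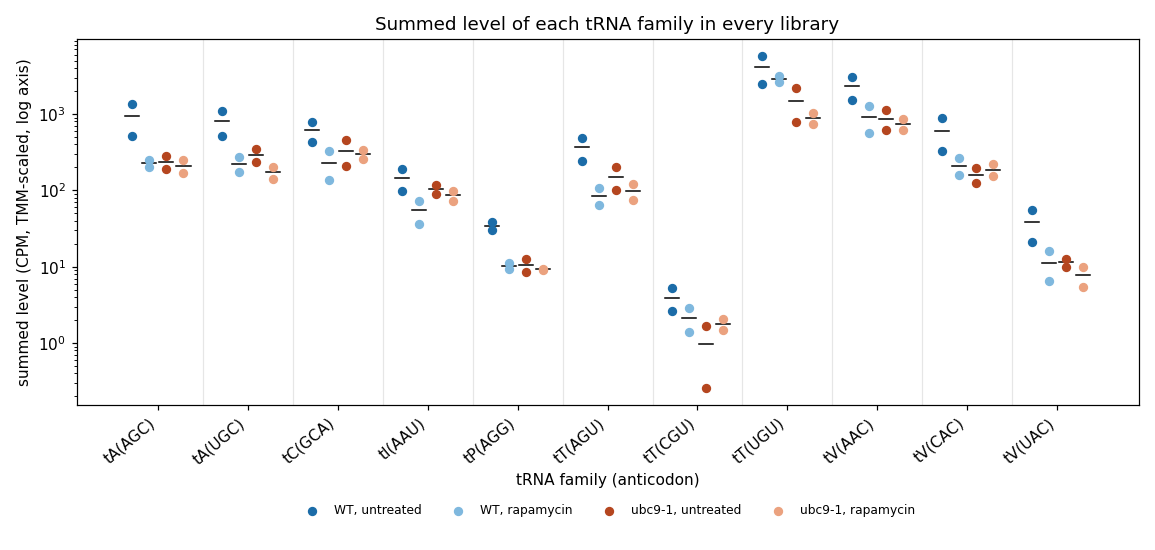
Summed level of each of the 11 tRNA families (CPM after TMM scaling, log axis) in the 8 libraries; points are libraries, colours are groups, and short black lines are the means of 2 libraries. In 9 of the 11 families both rapamycin-treated WT libraries lie below both untreated WT libraries.

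With rapamycin, 9 of the 11 families fell in WT. All 5 families with an A at position 34 fell, both of the alanine and all 3 of the valine families fell, and tC(GCA) fell, while tT(UGU) and tT(CGU) did not pass the test. By the edgeR quasi-likelihood test the 9 falls lay between 2.52-fold and 4.31-fold at an adjusted p under 0.05, with libraries of the 2 groups not overlapping in any of the 9. Among all 5893 features tested with each family as 1 feature, 11% were called lower and 8.99% higher, and 27.6% had both treated libraries below both untreated ones and 31.1% above. The median log2 fold change was -1.53 over the 11 families and 0.03 over all features. For comparison, 9 of the 21 other families without introns and 10 of the 10 families with introns were called lower, with medians of -1.29 and -2.15.

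The alanine tRNAs were among the most strongly lowered. tA(AGC) stood at 1355 and 516 CPM in untreated WT and at 252 and 205 CPM after rapamycin, and both treated libraries lay below both untreated ones. Its log2 fold change was -2.03 (SE 0.42, edgeR adjusted p = 0.00292). tA(UGC) stood at 1093 and 519 CPM in untreated WT and at 274 and 174 CPM after rapamycin, again without overlap, with a change of -1.85 (SE 0.40, edgeR adjusted p = 0.00388). The share of tA(UGC) in all alanine tRNA counts was 47.4% ± 3.91 (SD, n = 2) without and 48.9% ± 4.38 with rapamycin. This share, in which a shared fragment counts once per copy, moved by less than the spread between libraries.

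The 3 valine tRNAs span a wide range of levels and all fell. tV(AAC), the highest of the 3 when summed over its copies, stood at 3059 and 1543 CPM untreated and at 1270.5 and 558 CPM with rapamycin (log2 -1.33, SE 0.44, edgeR adjusted p = 0.0455). The sum counts a shared fragment once per copy. Per gene copy and kilobase the mean of tV(AAC) in untreated WT, 2221 CPM, was below the 4159 CPM of tV(CAC). tV(CAC) stood at 884 and 331 CPM untreated and at 263 and 158 CPM with rapamycin (log2 -1.53, SE 0.44, edgeR adjusted p = 0.0213). tV(UAC) stood at 55.5 and 21.2 CPM untreated and at 16.0 and 6.60 CPM with rapamycin (log2 -1.76, SE 0.46, edgeR adjusted p = 0.0140). In each of the 3 the treated libraries lay below the untreated ones.

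Among the threonine tRNAs only tT(AGU) passed the test, and the difference between the threonine families was not itself tested. tT(AGU) stood at 491 and 243 CPM untreated and at 106 and 63.96 CPM with rapamycin, a change of -2.11 on the log2 scale (SE 0.43, edgeR adjusted p = 0.00281), the largest of the 11. tT(UGU) stood at 5839 and 2469 CPM untreated and at 2666 and 3138 CPM with rapamycin, with overlapping libraries (log2 -0.52, SE 0.46, edgeR adjusted p = 0.485). tT(CGU), read from 1 gene with 6 to 67 counts per library, stood at 5.20 and 2.60 CPM untreated and at 2.89 and 1.39 CPM with rapamycin (log2 -0.86, SE 0.71, edgeR adjusted p = 0.441). tT(AGU) made up 7.76% and 8.96% of threonine tRNA counts in untreated WT and 3.83% and 1.997% with rapamycin, which do not overlap. The exact two-sided permutation p was 0.333, the smallest that 2 against 2 libraries allow.

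Isoleucine, cysteine and proline tRNAs fell as well. tI(AAU) stood at 191 and 99.3 CPM untreated and at 73.0 and 36.3 CPM with rapamycin (log2 -1.41, SE 0.38, edgeR adjusted p = 0.0168). tC(GCA) stood at 797 and 428 CPM untreated and at 328 and 135 CPM with rapamycin (log2 -1.40, SE 0.46, edgeR adjusted p = 0.0412). tP(AGG) stood at 39.1 and 30.0 CPM untreated and at 11.3 and 9.20 CPM with rapamycin (log2 -1.75, SE 0.30, edgeR adjusted p = 0.000756). The replicates of tP(AGG) were the closest among the 9 called families in untreated WT, and its adjusted p was the lowest of the 11.

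Single genes moved with their families. Of the 66 genes with counts, 46 were called lower in rapamycin-treated WT and all 66 had a negative log2 fold change, against 11.6% of all 6115 features called lower in the fit with single genes. Since identical copies share fragments, these 66 are not independent. All 11 copies of tA(AGC), all 11 of tT(AGU) and both of tP(AGG) and of tV(CAC) were called, as were 10 of 12 of tI(AAU), 3 of 4 of tC(GCA), 3 of 5 of tA(UGC), 3 of 14 of tV(AAC) and 1 of 2 of tV(UAC). The largest falls were those of tA(UGC)A with -2.40 (SE 0.42), tA(AGC)P with -2.32 (SE 0.41) and tT(AGU)I1 with -2.24 (SE 0.41), at edgeR adjusted p of 0.00125, 0.00133 and 0.00172. tA(UGC)A and tA(AGC)P are also the most counted copies of their families. tV(AAC)O, the copy with its own last base, changed by -1.17 (SE 0.45, edgeR adjusted p = 0.0809), and tT(CGU)K by -0.82 (SE 0.71, edgeR adjusted p = 0.462).

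These calls rested in part on 2 libraries. Without replicate 2 of rapamycin-treated WT, 2 families and 8 genes were called lower, and without replicate 1 of untreated WT 4 families and 14 genes. The log2 fold changes of the 9 families stayed negative in both cases, between -0.69 and -1.88. The call of tV(AAC), at 0.0455 the nearest of the 9 to the threshold, did not rest on these libraries alone. It was lost in the fit on the 2 WT groups alone (log2 -1.37, edgeR adjusted p = 0.0514), where 8 families were called. With 1 library left out at a time, tV(AAC) ran from -2.04 to -0.80. Scaling by total counts left 3 families called, both of alanine and tT(AGU), and 11 genes, and moved the median of all features to 0.56; under snoRNA scaling 6 families and 29 genes were called, with a median of all features of 0.16.

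**Figure D2:**
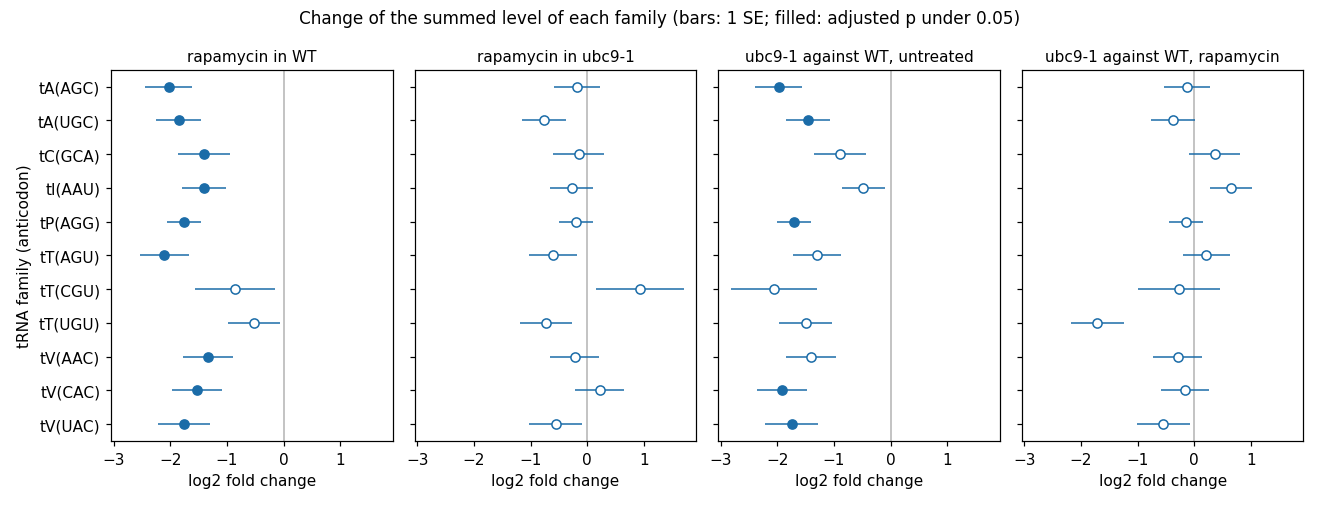
Log2 fold change of the summed level of each family in the 4 pairwise comparisons, from edgeR; bars are 1 SE and filled points have an adjusted p under 0.05. The filled points number 9 for rapamycin in WT, 5 for ubc9-1 against WT without drug, and 0 in the other comparisons.

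In ubc9-1 none of the 11 families was called changed by rapamycin. By the edgeR test, 0 of 11 passed in either direction, against 0.984% of all features called lower and 0.967% higher. At an unadjusted p under 0.05 there were 0 of the 11, and 618 of all 5893 features. DESeq2 also called 0. The log2 fold changes ran from -0.77 for tA(UGC) to 0.93 for tT(CGU), with a median of -0.22. tA(AGC) stood at 282 and 192 CPM in untreated ubc9-1 and at 249.9 and 170.4 CPM with rapamycin, which overlap (log2 -0.17, SE 0.40, edgeR adjusted p = 0.947). tA(UGC) was the only family whose libraries did not overlap, with 350.4 and 235 CPM untreated and 202 and 142 CPM with rapamycin (log2 -0.77, SE 0.39, edgeR adjusted p = 0.541), where 20% of all features had both treated libraries below both untreated ones and 20.4% above. tV(AAC) stood at 1115 and 625 CPM untreated and 869.7 and 623.5 CPM with rapamycin. tT(AGU) stood at 199.5 and 99.6 CPM untreated and 122 and 75.3 CPM with rapamycin.

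A family called in WT and not in ubc9-1 is not thereby shown to differ between the strains. The interaction, the rapamycin response in ubc9-1 minus that in WT, was positive for 10 of the 11 families, from 1.08 for tA(UGC) to 1.86 for tA(AGC), and was -0.21 for tT(UGU). The sign was not particular to these families. It was negative in 1 of the 21 other families without introns, 0 of the 10 with introns and 3076 of all 5893 features. Medians were 1.25 over the 11 families, 1.04 and 1.64 in the 2 other sets, and -0.04 over all features. None of the 11 passed in the edgeR test, where 0.272% of all features were called higher and 0.0339% lower. At an unadjusted p under 0.05 there were 4 of the 11, and 801 of all 5893 features. For tA(AGC) the interaction was 1.86 (SE 0.57, edgeR adjusted p = 0.183), and for tP(AGG) 1.55 (SE 0.42, edgeR adjusted p = 0.137). DESeq2 called 1, tA(AGC).

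Without drug, 5 families were lower in ubc9-1 than in WT: both alanine families, tP(AGG), tV(CAC) and tV(UAC). In that comparison 2.14% of all 5893 features were called lower and 2.58% higher, and 5 of the 10 families with introns and 6 of the 21 other families without introns were called. The untreated WT libraries are shared with the rapamycin comparison in WT, so the values of the 2 comparisons are given side by side and not as separate support. tA(AGC) stood at 282 and 192 CPM in untreated ubc9-1 against 1355 and 516 CPM in untreated WT (log2 -1.98, SE 0.42, edgeR adjusted p = 0.0181), beside -2.03 for rapamycin in WT. tA(UGC) stood at 350.4 and 235 CPM against 1093 and 519 CPM (log2 -1.46, SE 0.39, edgeR adjusted p = 0.0470), beside -1.85. The call of tA(UGC) was lost in the fit on the 2 untreated groups alone (log2 -1.45, edgeR adjusted p = 0.119). With 1 library left out at a time, tA(UGC) ran from -1.89 to -0.83 and tV(UAC) from -2.28 to -0.90. In the same fits tP(AGG) ran from -2.02 to -1.43, tA(AGC) from -2.51 to -1.12 and tV(CAC) from -2.45 to -1.04. The share of tA(UGC) in alanine tRNA counts was 55.4% and 55.0% in untreated ubc9-1, above the 44.6% and 50.2% of untreated WT and the 44.7% and 45.4% of rapamycin-treated ubc9-1 (exact two-sided permutation p = 0.333 for both, the smallest possible).

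tP(AGG) stood at 12.8 and 8.43 CPM in untreated ubc9-1 against 39.1 and 30.0 CPM in WT (log2 -1.71, SE 0.30, edgeR adjusted p = 0.00857). tV(CAC) stood at 198 and 124 CPM against 884 and 331 CPM (log2 -1.92, SE 0.44, edgeR adjusted p = 0.0261), and tV(UAC) at 12.7 and 10.05 CPM against 55.5 and 21.2 CPM (log2 -1.75, SE 0.47, edgeR adjusted p = 0.0465). The other 6 families had negative values that did not pass. The values were -2.06 for tT(CGU), -1.4998 for tT(UGU), -1.403 for tV(AAC) and -1.30 for tT(AGU), with ubc9-1 libraries below both WT libraries, and for tC(GCA) and tI(AAU) they were -0.90 and -0.49 with overlapping libraries. In all, 9 of 11 families had both ubc9-1 libraries below both WT libraries, as had 22.6% of all features, and 0 had both above, as had 24.1% of all features.

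Of single genes, 16 of 66 were called lower in untreated ubc9-1, against 2.4% of all features. All 11 copies of tA(AGC) were among them, with tA(AGC)M2 at -2.07 (SE 0.41, edgeR adjusted p = 0.0202), tA(AGC)F at -2.04 (SE 0.46, edgeR adjusted p = 0.0271) and tA(AGC)D at -2.01 (SE 0.43, edgeR adjusted p = 0.0241) the lowest. tT(UGU)G2 was called as well, at -1.71 (SE 0.44, edgeR adjusted p = 0.0438), while tT(UGU)G1 was at -1.45 (SE 0.50, edgeR adjusted p = 0.108). The count of called families moved with single libraries: 1 family, tP(AGG), was called without replicate 1 of untreated WT and also 1 without replicate 2 of untreated ubc9-1, with 1 and 0 genes. Under total counts and under snoRNA scaling 0 families were called.

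With rapamycin in both strains, 0 of the 11 families were called different in the edgeR test, with 1.56% of all features called lower and 2.21% higher. DESeq2 called 1 family. At an unadjusted edgeR p under 0.05 there was 1 of the 11, and 1143 of all 5893 features. Log2 values ran from -1.71 for tT(UGU) to 0.65 for tI(AAU), with a median of -0.17. tT(UGU) stood at 1042 and 732 CPM in ubc9-1 against 2666 and 3138 CPM in WT, without overlap (log2 -1.71, SE 0.47, edgeR adjusted p = 0.0576). tI(AAU) was the only family with both ubc9-1 libraries above both WT libraries, at 98.1 and 73.3 CPM against 73.0 and 36.3 CPM (log2 0.65, SE 0.38, edgeR adjusted p = 0.379). Of all features, 27.8% had both ubc9-1 libraries below both WT libraries here, and 28.4% above. tT(UGU) crossed the threshold in 10 of its 18 alternatives, among them the fit on these 2 groups alone (edgeR adjusted p = 0.00294).

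Of nuclear tRNA counts the 69 genes took 3.82% and 3.11% in WT without drug and 2.68% and 3.48% with rapamycin. In ubc9-1 they took 2.68% and 3.39% without drug and 3.16% and 3.11% with it. The groups overlapped in all 4 comparisons, and the exact permutation tests gave p of 0.667 or 1. This share leans on tT(UGU), which made up 42.3% and 39.8% of the counts of the 69 genes in WT without drug and 50.7% and 70.0% with rapamycin. Summed after these values were seen, the other 10 families held 2.21% and 1.87% of nuclear tRNA counts in WT without drug and 1.32% and 1.05% with rapamycin, which do not overlap. In ubc9-1 the 10 families held 1.498% and 2.28% without drug and 2.12% and 2.09% with it. The exact two-sided permutation p was 0.333 for rapamycin in WT and between the treated strains, the smallest possible, and 1 in both other comparisons.

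The copies of a family were not counted alike, and this gave a second measure, chosen after the counts of the copies had been seen. For identical copies, the count of the least counted copy is the most that can have been placed on every copy. This count was taken in each library on its own, so the copy that holds it can differ between libraries. For tV(AAC) it was G1 in replicate 1 of untreated WT, with 2033, and K2 in replicate 2, with 1700. Copies named below as least counted have the lowest total over all libraries. What the other copies hold above the least count was placed on fewer copies. A fragment that lies within the gene fits every identical copy, while one that reaches beyond the gene's ends need not. The deposited counts do not say where a fragment starts or ends, so which placements extend beyond the gene was not tested. The bases that follow the most and the least counted copy are shown for 4 families, from RefSeq R64 on the gene's strand, with the first run of at least 4 T, the letters at which RNA polymerase III is known to stop, in capitals.

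tA(AGC)P, most counted: TTTTaatttttgattatggaatacaaaatg
tA(AGC)K2, least counted: TTTTaaaatttctttttttttttttctctt
tA(UGC)A, most counted: aaTTTTTTTgttaatccaacacaattgaat
tA(UGC)L, least counted: tttaTTTTTTacttttattctcctttattt
tV(AAC)H, most counted: aTTTTTTTTgaattttttttttttctttag
tV(AAC)M3, least counted: TTTTTTTgaagacatcccgcatgaaaacat
tT(UGU)G1, most counted: taaTTTTatatatctctttttttgcttgtt
tT(UGU)G2, least counted: gtttccTTTTTatttgtcagtattaataat

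**Figure D3:**
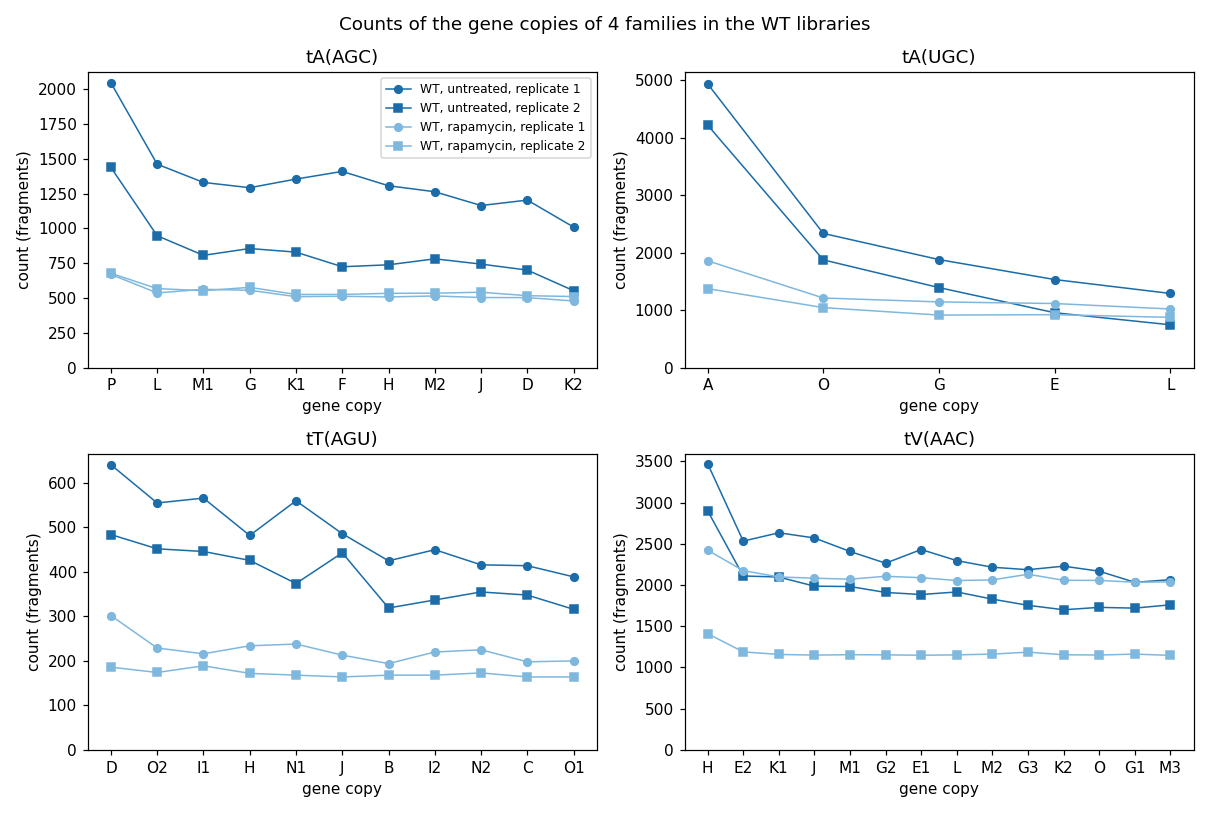
Counts of every gene copy of the alanine families tA(AGC) and tA(UGC), the threonine family tT(AGU) and the valine family tV(AAC) in the 4 WT libraries, with copies ordered by their total and joined by lines for reading only; each copy is named by its chromosome letter and number. In untreated WT the copies spread apart, as for tA(UGC) from 4934 (A) to 1290 (L) in replicate 1, and with rapamycin they lie closer together.

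In untreated WT the counts of identical copies spread apart. tA(UGC)A had 4934 and 4217 counts in the untreated libraries, where tA(UGC)L had 1290 and 745. After rapamycin tA(UGC)A had 1858 and 1374 and tA(UGC)L 1020 and 875. tV(AAC)H had 3472 and 2900 counts untreated and 2423 and 1410 with rapamycin, where tV(AAC)M3 had 2065 and 1760 untreated and 2039 and 1147 with rapamycin. tA(AGC)P had 2047 and 1439 counts untreated and 670 and 678 with rapamycin, against 1010 and 553, then 479 and 511, for tA(AGC)K2. In these 3 families the ratio of the most to the least counted copy was higher in both untreated libraries than in both treated ones, whatever the scaling.

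Set against the least count, placements above it were higher in several families in untreated WT than after rapamycin. The least count enters this share once, while the placements are summed over copies, so it is not a share of the family's counts. In replicate 1 of untreated WT, tA(AGC) had 3738 such placements among 14848 counts, tI(AAU) 275 among 2087 and tA(UGC) 5519 among 11969. As a share of such placements plus the least count, they were 78.7% and 84.6% for tA(AGC) in untreated WT and 55.2% and 46.6% with rapamycin. For tA(UGC) they were 81.1% and 88.0%, then 55.0% and 46.3%. For tV(AAC) they were 70.7% and 67.0%, then 32.6% and 26.6%. For tI(AAU) they were 64.6% and 56.4%, then 31.3% and 38.4%, and for tT(AGU) 74.0% and 72.3%, then 63.3% and 34.4%. In 6 of 10 families the rapamycin-treated WT libraries were below the untreated ones, in 2, tC(GCA) and tT(UGU), they were above, and tP(AGG) and tV(UAC) overlapped. No background over other tRNA families is given for these counts. Of the 6, tV(CAC) rests on few placements and lay apart narrowly, at 0.741% and 0.273%, then 0.0328% and 0.257%. tC(GCA) went from 24.3% and 27.0% to 42.3% and 41.8%. The smallest exact permutation p that this design allows is 0.333.

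**Figure D4:**
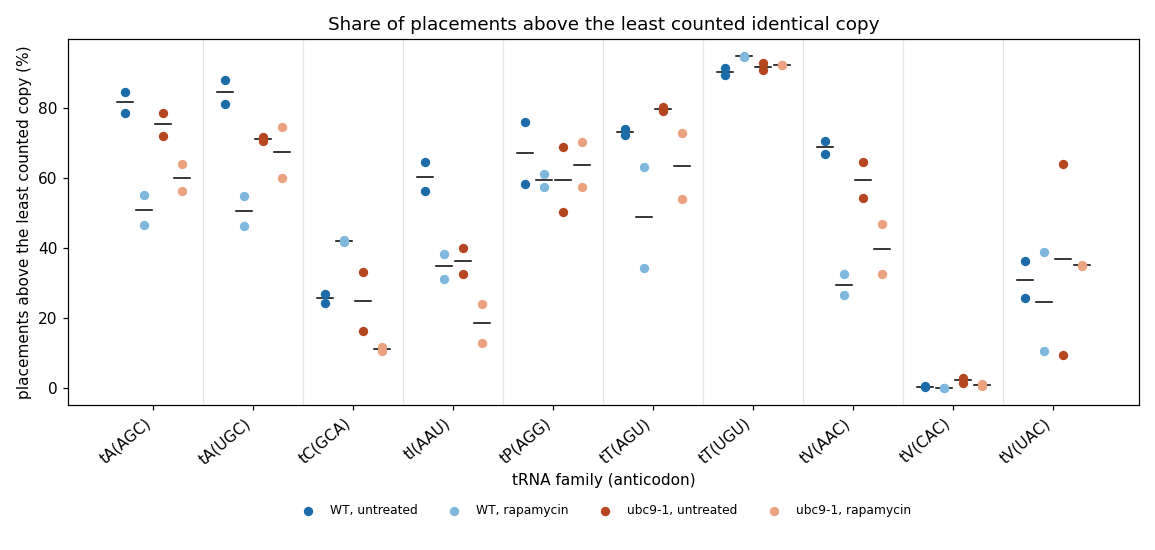
Placements above the least counted identical copy, as a percentage of these plus the least count, for the 10 families with 2 or more identical copies that have counts; points are libraries, colours are groups, and black lines are means of 2 libraries. For both alanine families and for tV(AAC) both untreated WT libraries lie above all 6 other libraries, for tA(AGC) by a narrow margin over untreated ubc9-1 replicate 2 (78.7% against 78.6%).

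Tested as features of their own in the whole table, placements above the least counted copy fell in rapamycin-treated WT in 8 of 10 families, where 11% of all 5888 features were called lower. tA(AGC) went from 3738 and 3041 such placements to 589 and 446 (log2 -3.66, SE 0.38, edgeR adjusted p = 9.34e-06), a 12.7-fold fall after scaling. tA(UGC) went from 5519 and 5458 to 1247 and 753 (log2 -3.36, SE 0.40, edgeR adjusted p = 3.38e-05), 10.3-fold. tV(AAC) went from 4909 and 3449 to 982 and 416 (log2 -3.51, SE 0.49, edgeR adjusted p = 0.000117), 11.4-fold. tT(AGU) went from 1105 and 824 to 335 and 86 (log2 -3.09, SE 0.58, edgeR adjusted p = 0.00148).

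tI(AAU) went from 275 and 171 placements to 62 and 53 (log2 -2.96, SE 0.46, edgeR adjusted p = 0.000298), and tP(AGG) from 176 and 326 to 106 and 120 (log2 -2.0003, SE 0.33, edgeR adjusted p = 0.000477). tV(UAC), with 90 and 83 against 21 and 47, and tV(CAC), with 36 and 8 against 1 and 6, rest on few placements (log2 -2.35 and -3.76, edgeR adjusted p = 0.0438 and 0.0312). The 2 that did not pass were tC(GCA), with 650 and 642 against 1178 and 610 (log2 -0.42), and tT(UGU), with 53763 and 35272 against 55583 and 83959 (log2 -0.40). Most such placements were on 1 copy in tC(GCA), on tC(GCA)B, and also in a called family, tA(UGC), on tA(UGC)A. In families with 2 identical copies that have counts, such as tT(UGU) and tP(AGG), all lie on the more counted copy by construction.

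Single libraries moved these values. Over the 8 fits that each left out 1 library, the log2 fold change for rapamycin in WT ran from -4.08 to -3.13 for tA(AGC), from -3.99 to -2.91 for tA(UGC), from -4.51 to -2.835 for tV(AAC), from -4.65 to -2.345 for tT(AGU) and from -3.49 to -2.16 for tI(AAU), and each was called in all 8. The furthest values came without replicate 1 of rapamycin-treated WT for both alanine families, tV(AAC) and tT(AGU). tV(UAC) was not called in 4 of the 8 fits, those without a WT library, where it ran from -2.81 to -1.93. tV(CAC) was not called in 3 of the 8, without replicate 1 of untreated WT, at -1.80, and without either library of rapamycin-treated WT, down to -5.175.

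The least counted copy had a log2 fold change nearer to 0 than the placements above it in 8 of the 10 families. Its values ran from -1.12 for tA(UGC) to -1.94 for tT(AGU), and 8 of the 10 were called lower, against 11% of features in that fit. For tA(AGC) it was -1.70 (SE 0.42, edgeR adjusted p = 0.00930) beside -3.66 above the least copy. For tV(AAC) it was -1.16 (SE 0.42, edgeR adjusted p = 0.0654) beside -3.51, and for tA(UGC) -1.12 (SE 0.42, edgeR adjusted p = 0.0729) beside -3.36. The order was the other way round for tC(GCA), with -1.53 for the least copy (edgeR adjusted p = 0.0215) beside -0.42, and for tT(UGU), with -1.31 (SE 0.40, edgeR adjusted p = 0.0291) beside -0.40. The difference between the 2 measures was not itself tested.

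**Figure D5:**
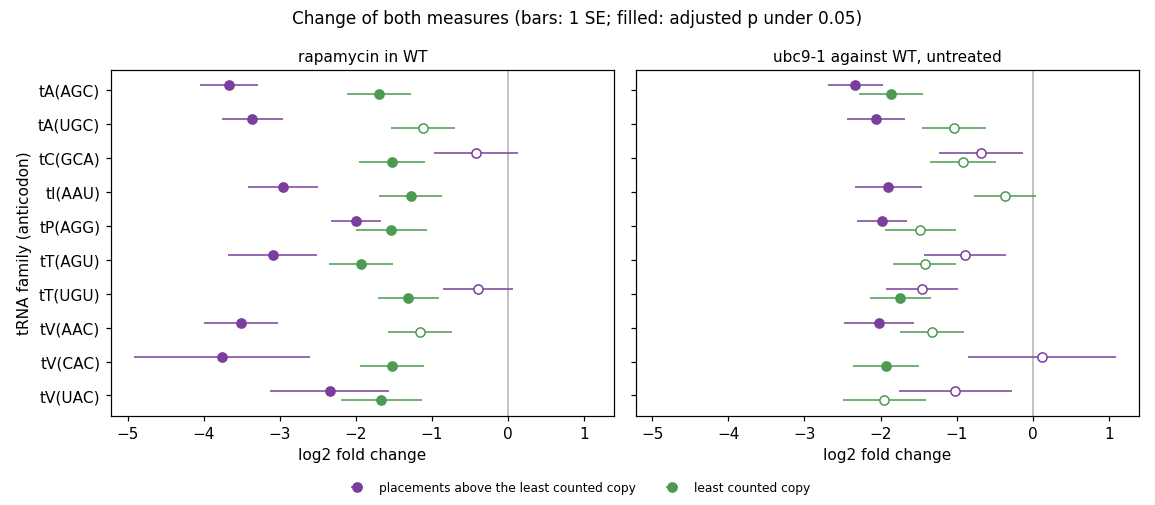
Log2 fold changes of placements above the least counted copy (purple) and of the least counted copy (green) for 10 families, for rapamycin in WT and for ubc9-1 against WT without drug, from edgeR; bars are 1 SE and filled points have an adjusted p under 0.05. For rapamycin in WT the purple points lie at -3.66 for tA(AGC), -3.36 for tA(UGC) and -3.51 for tV(AAC), and the green points of the same families at -1.70, -1.12 and -1.16.

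In untreated ubc9-1 these placements were lower than in untreated WT in 5 of 10 families, where 2.11% of all features were called lower. tA(AGC) had 800 and 1133 (log2 -2.33, SE 0.36, edgeR adjusted p = 0.00353), tA(UGC) 1761 and 1799 (log2 -2.06, SE 0.38, edgeR adjusted p = 0.0101) and tV(AAC) 1299 and 1681 (log2 -2.02, SE 0.46, edgeR adjusted p = 0.0244). tP(AGG) and tI(AAU) were called at -1.98 and -1.90. The calls of tV(AAC) and tI(AAU) were lost without replicate 1 of untreated WT, where the values were -1.296 and -1.06, and without either library of untreated ubc9-1. The values that did not pass were -0.89 for tT(AGU), -1.02 for tV(UAC), -0.68 for tC(GCA), -1.46 for tT(UGU) and 0.12 for tV(CAC). The least counted copy was called lower in 3 of 10 families, against 2.19% of features.

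Rapamycin in ubc9-1 gave 0 calls among the 10 families for these placements, with all 10 values negative, from -0.01 for tP(AGG) to -1.72 for tC(GCA). At an unadjusted p under 0.05 there were 6 of the 10, and 629 of all 5888 features. In that comparison 1.02% of all features were called lower. tA(AGC) went from 800 and 1133 placements to 344 and 367 (log2 -1.03, SE 0.35, edgeR adjusted p = 0.201). With rapamycin in both strains, tT(UGU) was lower in ubc9-1 (log2 -1.78, SE 0.47, edgeR adjusted p = 0.0467), 1 of 10 families, where 1.68% of features were called lower. The interaction passed for 1 of the 10, tA(AGC), at 2.63 (SE 0.50, edgeR adjusted p = 0.0293), where 0.289% of features were called higher.

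tT(UGU)G1 stood apart from its copies. It overlaps no annotated feature. Of the tT(UGU) count it held 92.0% and 90.4% in WT without drug and 94.9% and 95.3% with rapamycin, and in ubc9-1 93.3% and 91.7% without drug and 92.9% and 92.8% with it. Its counts were 58865 and 39461 in untreated WT and 58717 and 88343 with rapamycin, while the identical tT(UGU)G2 had 5102 and 4189, then 3134 and 4384. The ratio of G1 to G2 was 11.5 and 9.42 for WT without drug, 18.7 and 20.2 for WT with it and 11.1 to 13.8 in the 4 ubc9-1 libraries, so the treated WT libraries were above all others. Without G1, tT(UGU) was called lower with rapamycin in WT (log2 -1.31, SE 0.40, edgeR adjusted p = 0.0312) and in untreated ubc9-1 against WT (log2 -1.74, SE 0.41, edgeR adjusted p = 0.0274). Since tT(UGU)H and tT(UGU)P have no counts, these are the counts of G2 alone, as is the least counted copy of this family. In the fit with single genes G2 was not called for rapamycin in WT (log2 -1.26, SE 0.44, edgeR adjusted p = 0.0558). As strand was not used in counting, RNA from either strand of G1 cannot be told apart.

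The mRNAs of the enzymes that serve these tRNAs were read from the fit with single genes. Since RNA of 50 to 100 nt was selected, their counts are counts of fragments and need not follow the whole mRNA. The cytosolic synthetases that charge these tRNAs, ALA1 (alanine), VAS1 (valine), THS1 (threonine), ILS1 (isoleucine), CRS1 (cysteine) and YHR020W (proline), gave 0 calls of 6 in each of the 5 comparisons. In that fit 11.6% of all 6115 features were called lower for rapamycin in WT, and 536 of the 6115 higher. The shares in the other comparisons were smaller, so 0 of 6 is near the background and is no result about these genes. For rapamycin in WT their log2 fold changes were 0.10 for ALA1, -0.04 for VAS1, -0.09 for THS1, 0.03 for ILS1, -0.43 for CRS1 and -0.66 for YHR020W (edgeR adjusted p from 0.13 to 0.955). ALA1 had 786 and 1156 counts in untreated WT and 1325 and 2507 with rapamycin, in libraries of different depth. In ubc9-1 against WT without drug the 6 ran from -0.55 for VAS1 to 0.21 for CRS1.

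Of the genes for known modifications of these tRNAs, 6 of 21 were lower with rapamycin in WT, where 11.6% of all features were called lower. None was higher, where 536 of all 6115 features were. In the other comparisons 0 were called. At most 147 of all 6115 features were called lower in any of these, and at most 140 higher. There 0 of 21 is near the background and is no result about these genes. Tad2 and Tad3 turn A34 into inosine and Tad1 acts on A37 of alanine tRNA; 0 of these 3 passed, with 16 to 65 counts in the WT libraries and a median of -1.23. Of 6 genes for t6A, a modification of A37 in tT and tI, SUA5 was lower with 46 and 139 counts untreated and 47 and 52 with rapamycin (log2 -1.63, SE 0.55, edgeR adjusted p = 0.0487), and the list median was -0.36. Of 11 genes for side chains of U34, 5 were lower, against the same 11.6% of all features, and the median was -0.81 against 0.04 over all features. The list also holds TRM9 and TRM112, whose products methylate the U34 side chain of other tRNAs and are not known to act on U34 of the families described here. ELP2, a subunit of the Elongator complex, had 162 and 225 counts untreated and 61 and 92 with rapamycin (log2 -2.20, SE 0.46, edgeR adjusted p = 0.00393). ELP3, its catalytic subunit, had 81 and 238 counts, then 67 and 55 (log2 -2.10, SE 0.40, edgeR adjusted p = 0.00252). TRM112, a partner of Trm9 and of other methyltransferases, had 56 and 36 counts, then 22 and 23 (log2 -1.98, SE 0.63, edgeR adjusted p = 0.0389), and IKI1 and KTI12 were called at -1.28 and -0.92. MOD5, which adds i6A to tC(GCA), was at -0.74 (SE 0.31, edgeR adjusted p = 0.106). The replicates of the low-count genes differ widely in raw counts, and these calls are given under TMM scaling only. SUA5, IKI1 and KTI12 were near the threshold, at edgeR adjusted p of 0.0487, 0.0470 and 0.0483.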

How the data were processed

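Reads were processed by the authors. The submitters' processing notes list build R64, featureCounts 1.4.6-p3 and TopHat2 2.0.13. The deposited values used here are raw fragment counts for each gene, without normalization. Per the file headers, counting used paired reads, each placement of a multi-mapping fragment, no strand and no assignment in overlapping features. All 8 count columns were mapped from the labels.

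Nuclear tRNA counts were summed per anticodon, in place of the single genes, in the whole table (6893 features). The edgeR 4.0.16 quasi-likelihood F test (R 4.3.3) was fitted to all 8 libraries together, 1 coefficient for each group, with TMM scaling and filterByExpr (minimum count 10), which kept 5893 features; 6115 were kept of the 7126 single features. Adjustment of p-values followed Benjamini and Hochberg over the whole table, with a threshold of 0.05. Degrees of freedom were 4 (residual) and 11.3 (prior), at a common dispersion of 0.0862. The SE, an approximation, divides the size of the log2 fold change by the square root of F. The 5 comparisons are the 4 pairs and the interaction. Shares of tRNA counts were compared by exact permutation tests, 40 in all, 4 of them added after the data were seen, with a smallest two-sided p of 0.333. That p was the lowest reached, and it stays above 0.05 after adjustment over the 40. The code was tested on simulated data.

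Alternatives changed the scaling (total counts, snoRNA TMM factors, DESeq2 size factors), dropped the filter, used the Wald test of DESeq2 1.42.0, fitted the 2 groups alone, or took the replicate number as a block, left out each library, or counted each distinct sequence once. The least counted copy, the placements above it, and tT(UGU) without G1 were added after the data were seen. The members, the lists of enzymes and the tests were chosen with earlier results of these data known. Named are all families, the most counted gene of each, genes with a sequence of their own, and, per comparison, up to 3 genes with the largest change in each direction; of the enzymes, the 6 synthetases and called genes, up to 3 per list, and IKI1, KTI12 and MOD5, which were chosen after their values were seen, as were tT(UGU)G2 and the copies shown beside the most counted ones. Sequences came from the RefSeq R64 genome.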

Additional observations from a re-analysis of the deposited data

Results flagged for a closer look

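The rapamycin response of tA(AGC) placements above the least counted copy differed between the strains. The interaction was 2.63 on the log2 scale (edgeR adjusted p = 0.0293): rapamycin changed these placements by -3.66 in WT and by -1.03 in ubc9-1, lower in both treated libraries of each strain. Over 13 alternatives the interaction ran from 1.87 to 3.05, with an adjusted p from 0.000278 to 0.396, and it was called in 5 of them. It was lost under total counts (adjusted p = 0.396), under snoRNA scaling (0.235), and when a library was left out, with 2 exceptions, untreated WT replicate 2 and rapamycin-treated WT replicate 1.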

How the results depend on the processing

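With 2 libraries a group, single libraries weigh heavily, and a call that was missed does not show that a value did not differ; the causes of the changes below were not tested. DESeq2 size factors kept every count of families and genes called, except that placements above the least counted copy gave 0 calls of ubc9-1 against WT with rapamycin.

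The replicate numbers were shared between groups, but the labels tie them to no batch. The deviations of same-numbered libraries correlated at 0.073 in WT and 0.118 in ubc9-1 between rapamycin and untreated, 0.165 between untreated strains and 0.0765 between treated strains, across features. With the replicate block, families called rose to 10 for ubc9-1 against WT untreated, 1 with rapamycin and 5 for the interaction, and genes to 54, 2 and 33, with 2 for rapamycin in ubc9-1; placements above the least copy gave 5 for rapamycin in ubc9-1, 2 between treated strains and 5 for the interaction.

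In the order rapamycin in WT, ubc9-1 against WT untreated and with rapamycin, total counts called 3, 0 and 1 families, 11, 8 and 1 genes and 5, 1 and 1 families in placements above the least copy. SnoRNA factors called 6, 0 and 1 families and 29, 0 and 1 genes; for placements above the least copy they called 5 for rapamycin in ubc9-1 and 1 for ubc9-1 against WT untreated, and both scalings called 0 for the interaction. Between untreated and between treated strains, no filter called 8 and 1 families and 30 and 1 genes, DESeq2's Wald test 8 and 1 families and 40 and 1 genes, with 1 family and 1 gene for the interaction, and the fit on 2 groups 3 and 1 families and 4 and 2 genes. With no filter, placements above the least copy gave 3 calls for rapamycin in ubc9-1, 2 between treated strains and 4 for the interaction. The least counted copy gave 3 families between untreated strains.

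The following values changed sign. Under snoRNA factors, tV(CAC) was -0.29 for rapamycin in ubc9-1; between untreated strains tC(GCA) was 0.0301 and tI(AAU) 0.56; between treated strains tA(AGC) was 0.19, tP(AGG) 0.18, tT(CGU) 0.0594, tV(AAC) 0.0358 and tV(CAC) 0.16. Placements above the least copy were 0.0691 for tC(GCA) and 0.0566 for tT(AGU) between untreated strains. Under total counts tT(UGU) was 0.16 for rapamycin in WT and tT(AGU) -0.12 between treated strains, and placements above the least copy were 0.11 for tC(GCA) and 0.28 for tT(UGU) for rapamycin in WT. Without G1, and at the least copy, the interaction of tT(UGU) was 0.57. With each distinct sequence once, tC(GCA) was -0.0666 between treated strains. Shares then changed sign, in percentage points: the members' share of tRNA by 0.731 for rapamycin in WT and -1.23 between treated strains, tA(UGC) in alanine by -2.39 and tV(CAC) in valine by 1.80 for rapamycin in WT, tV(UAC) in valine by 0.126 between untreated strains, and tT(UGU) in threonine by 0.208 for rapamycin in ubc9-1.

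Leaving out each library gave 2 to 9 families and 8 to 61 genes for rapamycin in WT, 1 to 5 and 0 to 27 between untreated strains, 0 to 1 and 0 to 1 between treated strains, and 0 to 7 genes for the interaction. Placements above the least copy gave 0 to 1 for rapamycin in ubc9-1, 3 to 6 and 0 to 2 between untreated and treated strains and 0 to 2 for the interaction. For rapamycin in WT, tT(UGU) ranged from -1.001 to 0.20, and placements above the least copy from -1.20 to 0.0932 for tC(GCA) and from -0.90 to 0.36 for tT(UGU). For rapamycin in ubc9-1, tA(AGC) ranged from -0.48 to 0.12, tC(GCA) from -0.61 to 0.52, tP(AGG) from -0.47 to 0.12, tT(UGU) from -1.28 to 0.19, tV(AAC) from -0.58 to 0.25 and tV(CAC) from -0.0798 to 0.59. Between untreated strains tI(AAU) ranged from -0.88 to 0.0587, and placements above the least copy from -2.30 to 0.0823 for tC(GCA) and from -0.88 to 2.11 for tV(CAC). Between treated strains tA(AGC) ranged from -0.39 to 0.15, tC(GCA) from -0.14 to 1.13, tT(AGU) from -0.14 to 0.62, tT(CGU) from -0.71 to 0.35, tV(AAC) from -0.77 to 0.42, tV(CAC) from -0.49 to 0.25 and tV(UAC) from -1.05 to 0.22. The interaction of tT(UGU) ranged from -0.93 to 0.73. The members' share of tRNA ranged, in points, from -0.792 to 0.0128 for rapamycin in WT, from -0.257 to 0.455 in ubc9-1 and from -0.347 to 0.459 between treated strains. tT(CGU) in threonine ranged from -0.0457 to 0.0151, tV(CAC) in valine from -2.81 to 2.05 and tA(UGC) in alanine from -1.59 to 4.61 for rapamycin in WT; tV(CAC) in valine from -1.97 to 2.89 between treated strains; tT(UGU) in threonine from -1.53 to 1.36 for rapamycin in ubc9-1; and tV(UAC) in valine from -0.294 to 0.0697 between untreated strains.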
